A study of Mus musculus with 6 samples.

Results

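The 10 genes described here encode inhibitors that extracellular signal-regulated kinase (ERK) signalling induces against itself. They are the dual-specificity phosphatase genes Dusp1, Dusp4, Dusp5, Dusp6 and Dusp7, the Sprouty genes Spry1, Spry2 and Spry4, and the Spred genes Spred1 and Spred2. They were chosen by symbol, and all 10 were found among the 55418 gene symbols of the deposited count table. Earlier results of these data were known when the members and the gene lists below were chosen. The cells were MOC2, a line of mouse oral squamous carcinoma described as free of papillomavirus. Of 6 libraries, 3 are labelled EphA4 knockout, all from the H3 clone, and 3 are control CRISPR cells. Both groups were untreated and grew in medium with serum, EGF, hydrocortisone and insulin, and polyadenylated RNA was sequenced. A difference between these groups is therefore that of 1 clone against control cells, and the clone and the edit cannot be told apart.

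Growth factor receptors activate Ras, which activates the kinases Raf, MEK and ERK in turn. Active ERK induces transcripts of its own inhibitors: Dusp proteins remove the activating phosphates from ERK and related kinases, while Sprouty and Spred proteins act upstream, between the receptor and Raf. The amount of these transcripts is widely used as a readout of ERK pathway output, and in epithelial cells the pathway is driven by EGF and FGF receptors among others.

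The libraries held 35115926 to 41775031 counts. Epha4, the edited gene, had 3483, 3815 and 3606 counts in the knockout-labelled libraries, against 1907, 2110 and 2250 in control. Its log2 fold change was 0.86 (SE 0.06, adjusted p = 2.1e-06, edgeR's quasi-likelihood test), so the transcript of the target was higher, not lower. Neither the EphA4 protein nor the edited sequence was examined here, so these counts do not tell whether the knockout holds. Directions below are those of the libraries labelled EphA4 knockout. EphA4 knockout replicate 3 stood apart from the other libraries of its group, with a chi-square per degree of freedom of 28.5 and 29.7 against them, where that pair had 4.57 and the control pairs 7.28 to 9.59. No pair agreed within sampling noise. The epithelial genes Krt8, Krt18, Epcam and Cdh1 were high in both groups. The basal squamous markers Krt5 and Trp63 had at most 2 counts in any library. Of the other markers on this list of 10, Itga6 and Sfn averaged 580 and 108 CPM in knockout-labelled libraries, against 399 and 56.6 CPM in control. Krt14 and Krt17 averaged 1.83 and 0.27 CPM in knockout-labelled libraries, against 3.72 and 0.75 CPM in control. Of the 8 that could be tested, 5 were higher and 3 lower, with Epcam (627 against 954 CPM in control) among the lower. Summed levels of 9 fibroblast and pericyte markers were 1.93 to 2.06 CPM in knockout-labelled libraries and 49.9 to 53.1 CPM in control. Lum was at 0 counts in both groups, and Dcn and Thy1 were at 0 in the knockout-labelled group. The 6 of them that could be tested were lower. Col1a2, too low to be tested, went the other way, with 8, 11 and 10 counts in knockout-labelled libraries against 4, 0 and 1 in control. Summed leukocyte markers, 7 in all, were 11.8 to 13.4 CPM in knockout-labelled libraries and 22.1 to 24.8 CPM in control, with Cd3e and Itgam at 0 in both groups, and of the 2 that could be tested, 1 was higher and 1 lower. Endothelial and skeletal muscle markers, 5 each, summed to at most 1.77 CPM in any knockout-labelled library and at most 1.62 CPM in any control library. The part of these markers in the results below was not tested. Whether libraries of a group stem from separate cultures is not stated in the labels, and the p-values may therefore reflect technical spread alone. In bulk RNA, fewer cells of a type and less RNA per cell cannot be told apart.

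Most of the feedback inhibitors were lower in the knockout-labelled libraries, and a pair of them, Dusp5 and Spry1, were higher. Levels are CPM, the counts relative to the library total scaled by TMM factors, and a gene was called at an adjusted p under 0.05 over the 15199 genes that passed a filter on low counts. All 10 members passed that filter, with at least 461 counts in each library. Of the 10, 2 were higher, 7 were lower and Dusp7 did not pass. The comparison called 32.7% of all genes tested as higher and 38.8% as lower, or 71.5% in either direction, so a called member is the usual case in this comparison. The median log2 fold change was -0.46 over the 10 members, beside -0.04 over all genes tested. In absolute size the medians were 0.91 over the members and 0.65 over all genes tested. With a required log2 difference of at least 1, 1 member was higher and 3 were lower, where 10.3% and 20.1% of all genes tested were, or 30.5% in either direction. For 9 of the 10 members the libraries of one group all lay on the same side of those of the other, as did 76.1% of all genes tested.

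**Figure D1:**
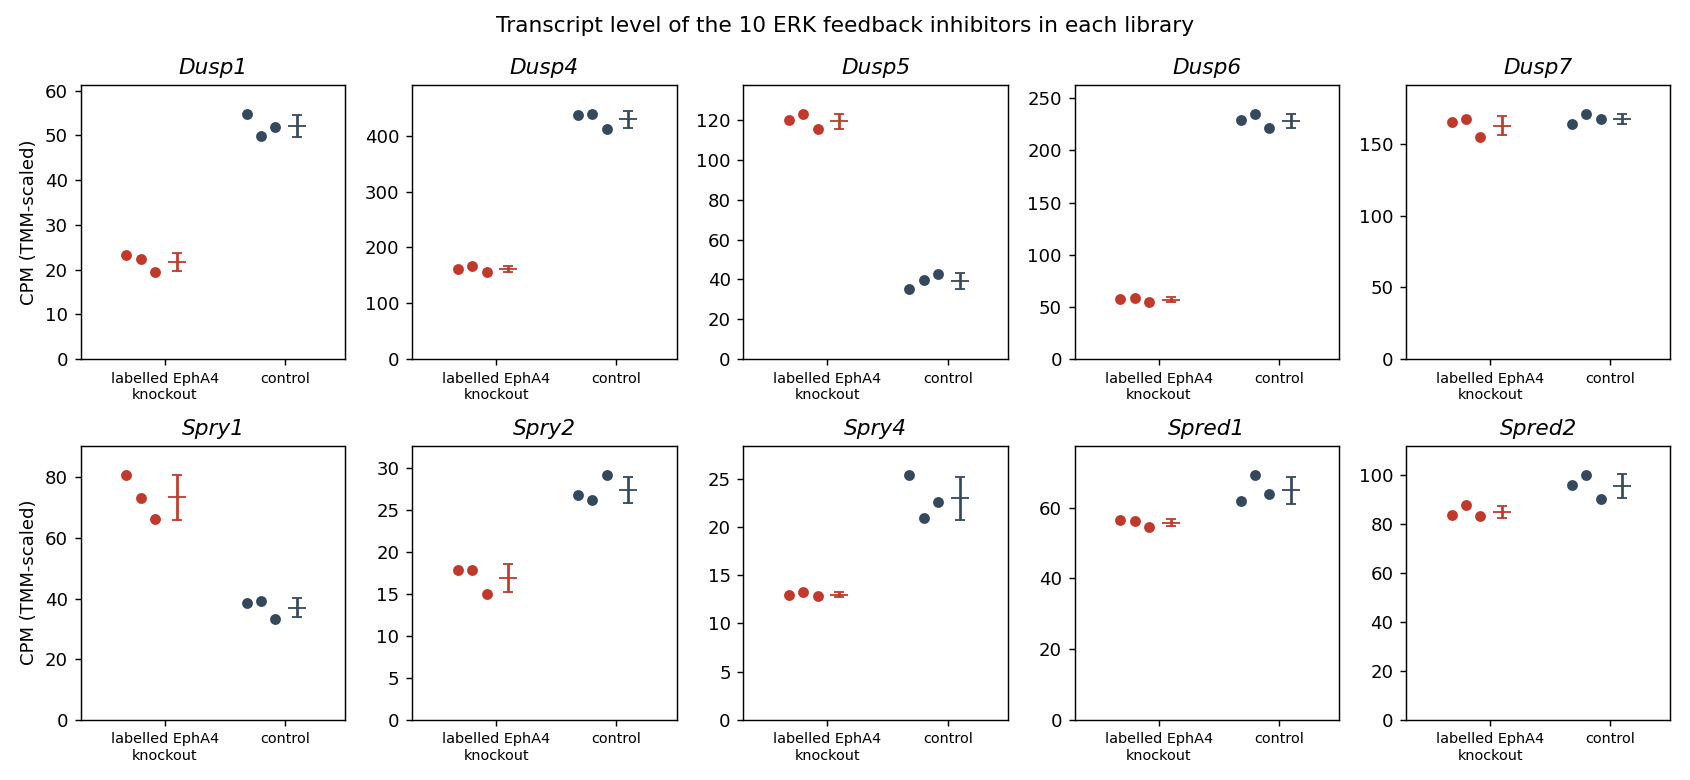
Level of each feedback inhibitor in CPM (TMM-scaled, linear axes from 0) in each library, with the 3 libraries labelled EphA4 knockout at the left of each panel and the 3 control libraries at the right. Points are libraries, and the bar beside them is the mean with its SD; Dusp5 and Spry1 are higher in the knockout-labelled libraries, Dusp7 overlaps, and the other 7 are lower.

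Among the inducible phosphatases of the nucleus, Dusp1 and Dusp4 fell and Dusp5 rose. Dusp1, also known as MKP-1, acts on p38 and JNK as well as on ERK. It had 23.3, 22.3 and 19.4 CPM in the knockout-labelled libraries, against 54.7, 49.9 and 51.9 CPM in control. Every knockout-labelled library lay below every control library, and the log2 fold change was -1.27 (SE 0.08, adjusted p = 9.16e-07, edgeR). Exons of Dusp1 overlap those of Ergic1 on the opposite strand, which had 6435 to 7677 counts in each library, and since the strand setting is not given, reads of this pair may be mixed.

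Dusp4, also known as MKP-2, had the highest level per length of the members in both groups. It had 160.6, 166.7 and 155.4 CPM in the knockout-labelled libraries, against 438, 439 and 412 CPM in control. The groups did not overlap, and the log2 fold change was -1.42 (SE 0.04, adjusted p = 1.48e-08, edgeR), a level 2.67-fold lower.

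Dusp5 is a nuclear phosphatase specific for ERK and anchors ERK in the nucleus. It had 119.9, 123 and 115.5 CPM in the knockout-labelled libraries, against 35.0, 39.9 and 42.7 CPM in control. It was thus the member with the largest rise, 3.04-fold (log2 fold change 1.61, SE 0.07, adjusted p = 1.27e-07, edgeR), and the groups were well apart. An antisense gene that overlaps its exons, AC137853.2, had at most 40 counts in any library.

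The ERK-specific phosphatases of the cytoplasm differed from each other. Dusp6, also known as MKP-3, is induced by ERK and holds ERK in the cytoplasm. It had 57.3, 58.9 and 54.2 CPM in the knockout-labelled libraries, against 229, 235 and 221 CPM in control. This was the largest change among the members in either direction, 4.02-fold lower (log2 fold change -2.01, SE 0.04, adjusted p = 3.07e-09, edgeR). Of all genes tested, 15.9% had an absolute log2 fold change at least as large.

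Dusp7, also known as MKP-X, is the close relative of Dusp6 that did not pass. It had 165.7, 167.7 and 155.3 CPM in the knockout-labelled libraries, against 164.4, 170.9 and 167.4 CPM in control, and the groups overlapped. Its log2 fold change was -0.04, with a 95% confidence interval of -0.13 to 0.05 (SE 0.04, adjusted p = 0.367, edgeR). Dusp6 and Dusp7 thus stood at 56.8 ± 2.35 and 162.9 ± 6.63 CPM in the knockout-labelled libraries and at 228 ± 6.70 and 167.6 ± 3.27 CPM in control (SD, n = 3 each).

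**Figure D2:**
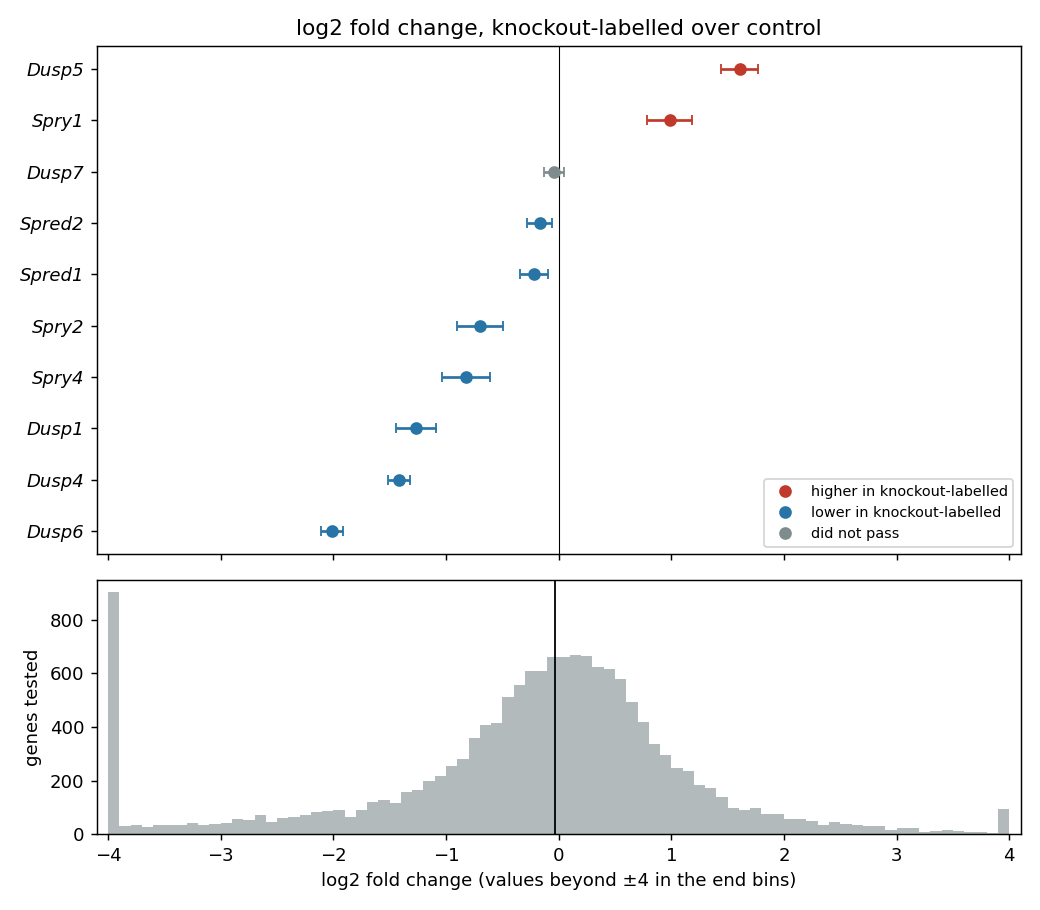
The upper panel gives the log2 fold change of each feedback inhibitor, libraries labelled EphA4 knockout over control, with its 95% confidence interval from the edgeR fit. The lower panel is a histogram of the log2 fold changes of the 15199 genes tested on the same axis, with a line at their median of -0.04; the members run from -2.01 for Dusp6 to 1.61 for Dusp5.

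Promoter sequences are shown for Dusp5 and Dusp1, the members whose windows held a match to a motif searched, and for Dusp6, the member with the largest fall, whose window held none. The sequences are RefSeq's on build GRCm38.p6, run from 250 bases before to 50 bases after the annotated start, and were matched by symbol for 8 of the 10 members, all but Dusp4 and Spry4. Motifs were searched on both strands: the CArG box bound by serum response factor, the cyclic AMP response element TGACGTCA, the AP-1 motif TGANTCA, the ETS motif CCGGAAG and the FOXO motif GTAAACA. The motifs were chosen after the sequences had been seen. Capitals mark matches, and the position of each window is chr19:53528895-53529194, plus strand, for Dusp5, chr17:26508423-26508722, minus strand, for Dusp1 and chr10:99262981-99263280, plus strand, for Dusp6.
Dusp5: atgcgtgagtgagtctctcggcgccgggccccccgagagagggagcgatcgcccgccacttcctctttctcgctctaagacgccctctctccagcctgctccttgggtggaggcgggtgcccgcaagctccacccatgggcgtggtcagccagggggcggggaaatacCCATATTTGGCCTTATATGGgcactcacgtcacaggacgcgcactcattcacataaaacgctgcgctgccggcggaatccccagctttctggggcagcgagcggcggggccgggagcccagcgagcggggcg
Dusp1: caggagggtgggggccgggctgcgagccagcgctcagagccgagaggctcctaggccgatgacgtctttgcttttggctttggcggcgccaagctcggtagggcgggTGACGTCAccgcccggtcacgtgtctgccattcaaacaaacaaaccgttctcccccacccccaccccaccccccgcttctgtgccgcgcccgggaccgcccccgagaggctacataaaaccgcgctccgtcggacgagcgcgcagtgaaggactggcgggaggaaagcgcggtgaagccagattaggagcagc
Dusp6: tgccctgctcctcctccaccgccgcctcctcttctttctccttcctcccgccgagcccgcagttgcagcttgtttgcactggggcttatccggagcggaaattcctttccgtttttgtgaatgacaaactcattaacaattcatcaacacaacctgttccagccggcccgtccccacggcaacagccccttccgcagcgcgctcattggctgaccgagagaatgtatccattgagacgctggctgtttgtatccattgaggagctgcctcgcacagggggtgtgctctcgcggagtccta

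The Dusp5 window held 2 adjacent CArG boxes, CCATATTTGG and CCTTATATGG, starting 82 and 72 bases before the annotated start. A CArG box was present in 1.63% of the 32851 RefSeq promoter windows of this length. The Dusp1 window held 1 cyclic AMP response element starting 143 bases before the start, a motif present in 1.79% of the windows. The windows of Dusp6, Dusp7, Spry1, Spry2, Spred1 and Spred2 held no match to any of the 5 motifs, which says only that these letters are not in these windows. No AP-1, ETS or FOXO match was found in the 8 windows, where 7.81%, 8.86% and 3.65% of all windows hold one. Matches did not overlap each other, and a match is a description of sequence, not of binding.

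The Sprouty genes went both ways, with Spry1 higher and Spry2 and Spry4 lower. Sprouty proteins are recruited near active receptors and restrain signalling to Ras and Raf. Spry1 had 80.7, 73.1 and 66.2 CPM in the knockout-labelled libraries, against 38.4, 39.2 and 33.4 CPM in control. The groups did not overlap, and Spry1 was 1.98-fold higher (log2 fold change 0.99, SE 0.09, adjusted p = 9.33e-06, edgeR). Gm42922, which overlaps its exons on the opposite strand, had at most 17 counts in any library.

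Spry2 binds the ubiquitin ligase Cbl and the adaptor Grb2. It had 17.9, 17.9 and 15.1 CPM in the knockout-labelled libraries, against 26.8, 26.3 and 29.2 CPM in control. It was lower in every knockout-labelled library, by 1.62-fold (log2 fold change -0.70, SE 0.09, adjusted p = 0.000118, edgeR).

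Spry4, which restrains Raf activation, was the member with the lowest level. It had 12.9, 13.3 and 12.8 CPM in the knockout-labelled libraries, which lay close together, against 25.4, 21.0 and 22.6 CPM in control. The groups did not overlap, and Spry4 was 1.77-fold lower (log2 fold change -0.82, SE 0.09, adjusted p = 4.29e-05, edgeR).

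The Spred genes differed least among the called members. Spred proteins bring neurofibromin, the Ras inactivator encoded by Nf1, to the membrane. Spred1 had 56.4, 56.1 and 54.6 CPM in the knockout-labelled libraries, against 61.7, 69.2 and 63.8 CPM in control. Its log2 fold change was -0.22 (SE 0.05, adjusted p = 0.00535, edgeR). The call was lost without EphA4 knockout replicate 3 (log2 fold change -0.15, adjusted p = 0.0507) and without control replicate 2 (log2 fold change -0.14, adjusted p = 0.0776).

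Spred2 had 83.8, 87.7 and 83.3 CPM in the knockout-labelled libraries, against 96.0, 99.9 and 90.1 CPM in control. Its log2 fold change was -0.17 (SE 0.05, adjusted p = 0.0126, edgeR). The call was lost when any library other than control replicate 3 was left out, at log2 fold changes of -0.10 without EphA4 knockout replicate 3 or control replicate 2, -0.12 without control replicate 1, -0.13 without EphA4 knockout replicate 1 and -0.16 without EphA4 knockout replicate 2 (adjusted p = 0.0544 to 0.173). On the TPM scale, which divides counts by exon length before scaling to the total, the 2 groups overlapped for both Spred genes. Over the same 15199 genes, 81.4% and 85.7% had a log2 fold change at least as large in absolute size as those of Spred1 and Spred2.

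EphA4 knockout replicate 3, the library that stood apart, had the lowest level of its group for 10 of 10 members. How often it was lowest over all genes tested was not computed, so this count cannot be called particular to the members. Without it, Dusp1, Dusp4, Dusp6, Spry2 and Spry4 were still called lower, with log2 fold changes of -1.14, -1.33, -1.92, -0.56 and -0.76. Dusp5 and Spry1 were still called higher, with log2 fold changes of 1.69 and 1.11, and Dusp7 stood at 0.05 and again did not pass.

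Ratios between members within a library do not depend on how libraries are scaled, and they were formed per base of exon. Dusp6 stood to Dusp5 as 0.377, 0.378 and 0.371 to 1 in the knockout-labelled libraries, against 5.17, 4.64 and 4.09 to 1 in control. Dusp5 thus exceeded its cytoplasmic counterpart in every knockout-labelled library, and Dusp6 exceeded Dusp5 in every control library. Dusp4 stood to Dusp5 as 1.21, 1.22 and 1.21 to 1 in the knockout-labelled libraries, against 11.3, 9.92 and 8.69 to 1 in control. Spry2 stood to Spry1 as 0.308, 0.340 and 0.316 to 1 in the knockout-labelled libraries, against 0.972, 0.932 and 1.22 to 1 in control. The ratio of Spred1 to Spred2 overlapped between the groups, at 0.436 to 0.458 in the knockout-labelled libraries and 0.438 to 0.482 in control. These pairs were chosen after the fold changes were known, and the ratios are given without a test.

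**Figure D3:**
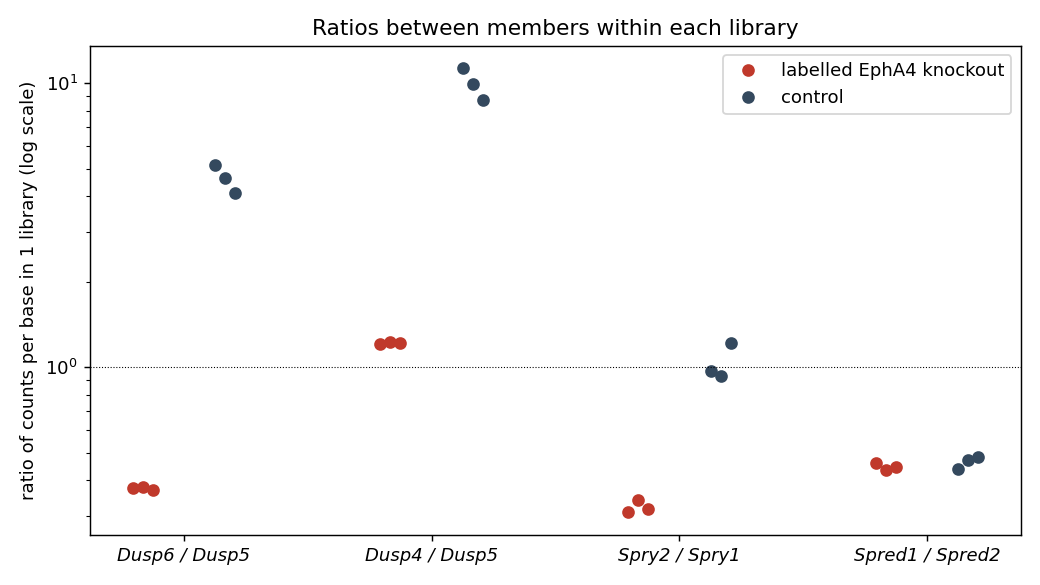
Ratio of counts per base of exon between pairs of members within each library, on a log axis, with libraries labelled EphA4 knockout at the left and control libraries at the right of each pair. Each point is a library and the dotted line marks equal levels; the Dusp6 to Dusp5 ratio lies at 0.371 to 0.378 in the knockout-labelled libraries and at 4.09 to 5.17 in control.

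The order of the members by level per length differed between the groups. In the knockout-labelled libraries it ran from Dusp4 (201 ± 14.1 TPM) through Dusp7 (166.5 ± 12.9 TPM), Dusp5 (165.6 ± 11.2 TPM) and Spry1 (86.7 ± 11.2 TPM) to Spred2 (63.0 ± 3.79 TPM) and Dusp6 (62.2 ± 4.82 TPM). Spred1 (28.2 ± 1.53 TPM), Spry2 (27.9 ± 3.65 TPM), Dusp1 (22.5 ± 2.83 TPM) and Spry4 (9.36 ± 0.48 TPM) followed (SD, n = 3 each). Neighbours whose ranges overlapped there were Dusp7 and Dusp5, Spred2 and Dusp6, Spred1 and Spry2, and Spry2 and Dusp1.

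In the control libraries the order ran from Dusp4 (499.9 ± 23.3 TPM) through Dusp6 (233 ± 10.0 TPM), Dusp7 (159 ± 5.25 TPM) and Spred2 (65.8 ± 4.30 TPM) to Dusp5 (50.6 ± 5.06 TPM) and Dusp1 (50.2 ± 1.88 TPM). Spry2 (41.9 ± 1.95 TPM), Spry1 (40.6 ± 3.91 TPM), Spred1 (30.5 ± 2.25 TPM) and Spry4 (15.4 ± 1.35 TPM) followed (SD, n = 3 each). Neighbours whose ranges overlapped were Dusp5 and Dusp1, and Spry2 and Spry1. Dusp6 thus had rank 6 of 10 in the knockout-labelled libraries and rank 2 in control, while Dusp5 had rank 3 in the knockout-labelled libraries and rank 5 in control.

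Summed over the 5 Dusp members, the level was 634, 654 and 567 TPM in the knockout-labelled libraries, against 991, 1029 and 958 TPM in control. The 3 Sprouty members summed to 136, 128 and 107 TPM in the knockout-labelled libraries, against 99.5, 98.8 and 95.4 TPM in control, so the Sprouty sum was higher there through Spry1 while the sum of the Dusp members was lower. The sum of both Spred members overlapped, at 85.5 to 95.8 TPM in the knockout-labelled libraries and 91.2 to 103 TPM in control. This overlap is on the TPM scale, whereas on the CPM scale the groups did not overlap for either Spred gene. Dusp4 and Dusp6 together made up most of the members' summed level in control, at 42.1% and 19.6%, and stood at 24.2% and 7.46% in the knockout-labelled libraries, where Dusp5 held 19.9%, against 4.27% in control.

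**Figure D4:**
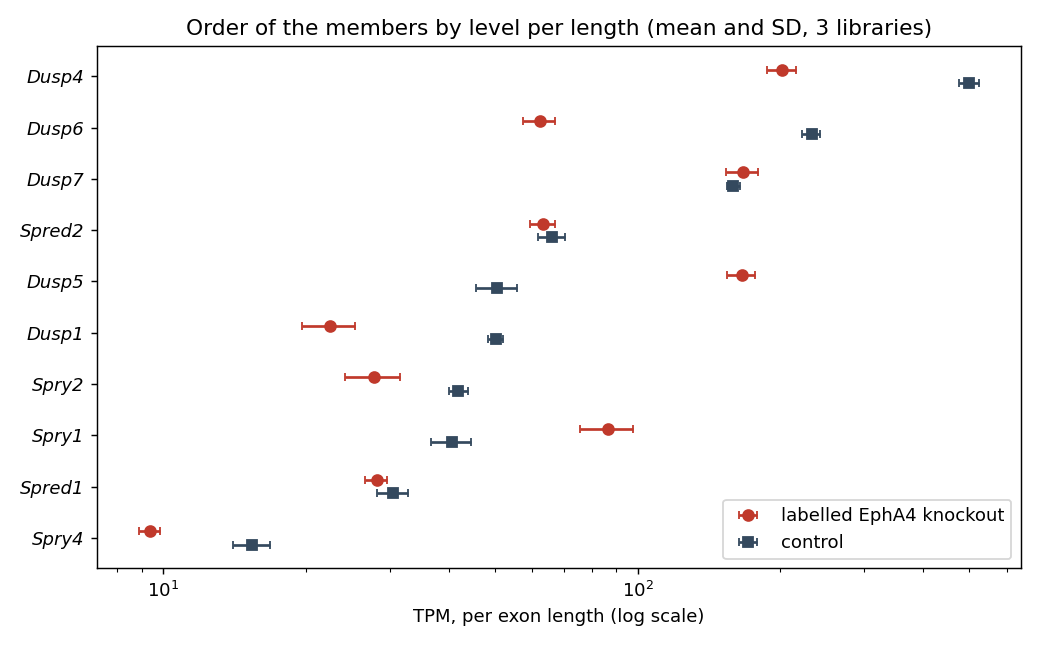
Level of each member per exon length in TPM on a log axis, ordered by the control level, with libraries labelled EphA4 knockout drawn above control in each row. Points are means of 3 libraries and bars their SD; Dusp4 is highest and Spry4 lowest in both groups, and Dusp5 lies above Dusp6 in the knockout-labelled libraries and below it in control.

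The genes whose pattern over the 6 libraries was most like that of Dusp5 were Fen1, Dclre1b and Wdr3, with root mean square differences of 0.05, 0.06 and 0.06 in log2 CPM centred on the control mean. For Dusp6 they were Ly6c1, Pycr1 and Ctsb, with differences of 0.04, 0.04 and 0.04. The search covered 9611 genes of moderate or higher abundance, of which 32 lay within 0.1 of Dusp5 and 40 within 0.1 of Dusp6. With 2 groups this likeness mostly reflects a similar fold change.

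The nearest relatives outside the 10 members were mostly lower as well. Of 7 relatives, 5 were lower, 0 were higher and 2 did not pass, where 38.8% of all genes tested were lower, and their median log2 fold change was -0.80. Spry3 had 107, 59 and 87 counts in the knockout-labelled libraries, against 327, 335 and 348 in control (log2 fold change -1.94, SE 0.24, adjusted p = 9.2e-05, edgeR). Spred3, a further Spred gene, had 241, 257 and 254 counts in the knockout-labelled libraries, against 858, 707 and 829 in control (log2 fold change -1.61, SE 0.10, adjusted p = 1.06e-06, edgeR). It overlaps Ggn on the opposite strand, which had 93 counts over the knockout-labelled libraries and 83 over control.

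Dusp2, an inducible nuclear phosphatase, was lower (log2 fold change -0.89), as were Dusp10 and Dusp16, which act mainly on p38 and JNK (log2 fold changes -0.80 and -0.28). Dusp9, the remaining cytoplasmic ERK phosphatase beside Dusp6 and Dusp7, had a log2 fold change of 0.09 with a 95% confidence interval of -0.03 to 0.22 and did not pass (adjusted p = 0.150, edgeR). Dusp8, which acts on JNK and p38, had a log2 fold change of 0.06 with an interval of -0.13 to 0.24 and did not pass (adjusted p = 0.549, edgeR).

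Upstream, most genes of the Ras-ERK cascade were higher, and the kinase genes of MEK1 and ERK1 were among the 6 that were lower. Of 22 cascade genes, 14 were higher, 6 were lower and 2 did not pass, beside 32.7% and 38.8% over all genes tested, and the median log2 fold change was 0.24. Mapk3, which encodes ERK1, had 32.9 ± 1.98 CPM in the knockout-labelled libraries and 133.8 ± 4.25 CPM in control (SD, n = 3 each), and its log2 fold change was -2.02 (SE 0.05, adjusted p = 9.09e-09, edgeR). Map2k1, which encodes MEK1, and the scaffold gene Ksr1 fell (log2 fold changes -1.02 and -2.38), and Hras rose (log2 fold change 1.09). Map2k2, which encodes MEK2, was called higher (log2 fold change 0.23). It had 145 ± 10.7 CPM in the knockout-labelled libraries and 124 ± 4.22 CPM in control (SD, n = 3 each). These are transcripts, and phosphorylation of ERK was not measured.

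Other transcripts that ERK induces went both ways. Of 18 genes, 7 were higher, 10 were lower and Myc did not pass, beside 32.7% higher and 38.8% lower over all genes tested, and the median log2 fold change was -0.55. Fos, an immediate early gene, had 1.16 ± 0.21 CPM in the knockout-labelled libraries and 94.4 ± 8.49 CPM in control (SD, n = 3 each). Egr1, a further immediate early gene, Ier3 and the ETS factor gene Etv1 fell as well (log2 fold changes -2.71, -2.13 and -4.80). The ETS factor genes Etv4 and Etv5, often used as readouts of ERK output, had log2 fold changes of -0.68 and -0.47 and were called lower. Lif, Phlda1 and Ccnd1 were also called lower (log2 fold changes -0.99, -0.66 and -0.62). So was Vgf (log2 fold change -2.28), a gene of low level at 0.29 CPM in the knockout-labelled libraries and 1.40 CPM in control. Plaur, Fosl1 and Mafk were called higher (log2 fold changes 1.06, 0.76 and 0.41), as were Areg, Epha2 and Hbegf (log2 fold changes 0.38, 0.30 and 0.20). The list also holds Epha4 itself, whose rise is given above.

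Of 15 other negative regulators of receptor and Ras-ERK signalling, 7 were higher, 6 were lower and 2 did not pass, beside 32.7% higher and 38.8% lower over all genes tested. Il17rd, also known as Sef, an inhibitor induced by FGF, had 71, 66 and 83 counts in the knockout-labelled libraries, against 584, 557 and 693 in control (log2 fold change -2.99, SE 0.15, adjusted p = 2.25e-07, edgeR). The cytokine feedback inhibitor Socs3 and the receptor inhibitor Lrig1 fell (log2 fold changes -3.06 and -1.46), and Rasal2, a Ras GTPase activator, rose by 1.08. Nf1, the partner of the Spred proteins, had a log2 fold change of 0.01 with a 95% confidence interval of -0.11 to 0.13 and did not pass (adjusted p = 0.892, edgeR). Lrig1 and Rasal2 share exon sequence with other gene models on the opposite strand.

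Of 10 partners and turnover factors of Sprouty and Spred proteins, 3 were higher, 4 were lower and 3 did not pass, near the 32.7% and 38.8% of all genes tested. Tesk1, a kinase that binds Sprouty proteins, rose by 1.10, while its relative Tesk2 fell by 1.31 on the log2 scale, and both overlap other gene models. Dyrk1a, a kinase that phosphorylates Spry2, rose by 0.79. Egln3, a prolyl hydroxylase gene, had 3 counts over the knockout-labelled libraries and 4865 over control, 1567-fold lower per total count with an exact 95% binomial interval of 536 to 7601 that covers counting error only.

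The other kinases that Dusp proteins act on were mostly lower. Of 8 genes of the p38, JNK and ERK5 kinases, 7 were lower and 1 was higher, beside 38.8% lower and 32.7% higher over all genes tested, and the median log2 fold change was -0.59. Mapk14, which encodes p38 alpha, rose by 0.89, while Mapk12, Mapk11 and Mapk13, the genes of the other p38 kinases, fell (log2 fold changes -2.70, -0.96 and -0.68). Of 8 kinases upstream of them, 3 were higher, 4 were lower and 1 did not pass, again beside 32.7% and 38.8% of all genes tested. Map2k6, an activator of p38, and Map2k5, the activator of ERK5, fell (log2 fold changes -2.87 and -0.49), and Map3k7 and Map2k3 rose (log2 fold changes 0.94 and 0.56).

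**Figure D5:**
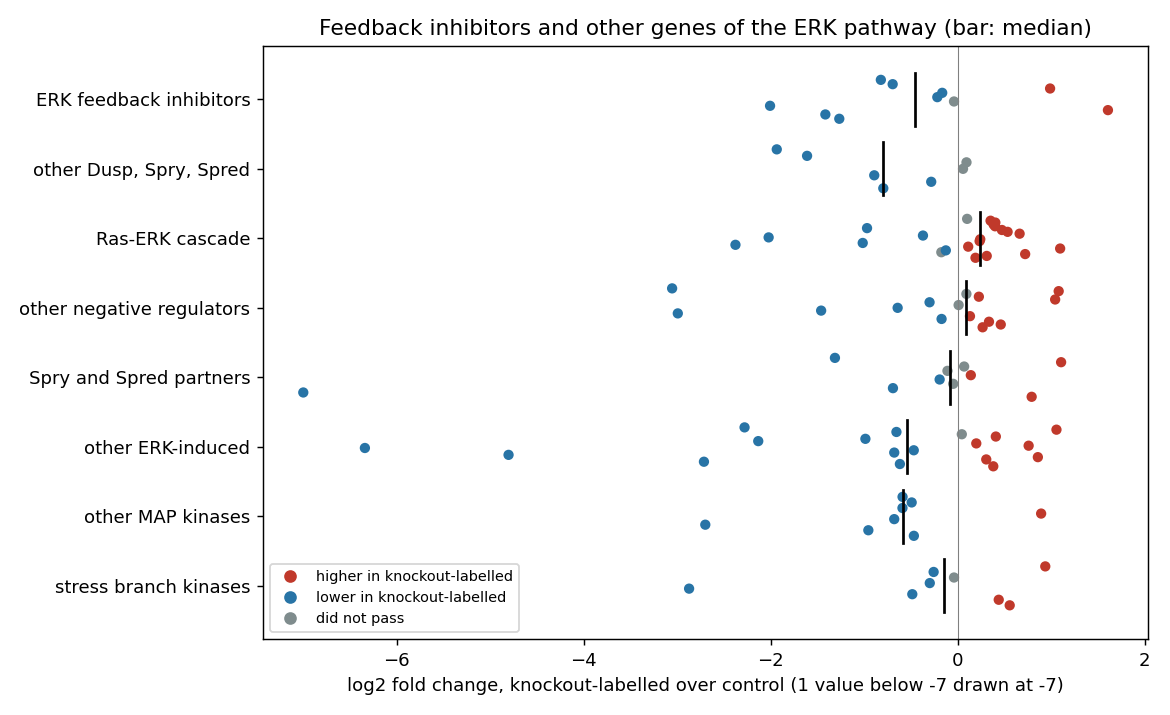
Log2 fold change, libraries labelled EphA4 knockout over control, of the 10 feedback inhibitors (top row) and of the genes of 7 lists around the ERK pathway. Each point is a gene tested, coloured by its call, and the bar is the median of its row, at -0.46 for the feedback inhibitors, 0.24 for the Ras-ERK cascade and -0.55 for other ERK-induced transcripts; Egln3, below the axis range, is drawn at its end.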

How the data were processed

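The deposited file holds raw counts by gene symbol for 6 polyA-selected libraries, which the authors had not normalized. Per the submitters' processing notes, reads were aligned with STAR to GRCm39; for the counting tool, strand setting and annotation, the sources used here give nothing. The 55418 symbols of the table equal those of GENCODE mouse release M21, which gave exon lengths and overlaps, and promoters are RefSeq's on GRCm38.p6. Release M21 annotates GRCm38, not the GRCm39 named for the alignment. Exon lengths, TPM and overlaps therefore rest on the match of symbols. No column of another sample was used.

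Of 28042 genes with any count, edgeR's filterByExpr kept 15199. After TMM scaling, a model with only the group was fitted in edgeR 4.0.16 (R 4.3.3), and two-sided quasi-likelihood tests (glmQLFTest) were adjusted by Benjamini-Hochberg over all genes tested. SE was taken as the size of the log2 fold change over the square root of the F statistic. At these depths 1 count equals 0.0240 to 0.0283 CPM. TPM was computed from the counts and the exon union length. The script was tested on simulated counts.

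The members and gene lists were chosen with earlier results of these data known. All members were named, with up to 4 called genes per list by absolute log2 fold change (average log2 CPM of at least 1). All called ERK-induced genes were also named, as were a few single genes (Mapk3, Map2k2, Etv4, Etv5, Nf1 and the relatives of the members). A further gene that this rule names is not reported here. For similar patterns, the limits were an average log2 CPM of 3 or more and a prior count of 2. Alternatives were other scaling factors, other filters and thresholds, DESeq2 1.42.0, limma-voom (limma 3.58.1), each library left out, leaving out the 20 highest genes, and a replicate block. Figures were drawn with matplotlib 3.10.9.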

Additional observations from a re-analysis of the deposited data

How the results depend on the processing

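Dusp1, Dusp4, Dusp6, Spry2 and Spry4 were called lower, and Dusp5 and Spry1 higher, in each of 15 alternative fits, with log2 fold changes of -2.08 to -1.92 for Dusp6 and 1.54 to 1.72 for Dusp5. Dusp7 passed in none of them (log2 fold change -0.11 to 0.05, adjusted p = 0.081 to 0.933). Spred1 was called in 13 of 15 and Spred2 in 10 of 15, the exceptions all being fits with 1 library left out. Leaving out 1 library at a time gave 10045 to 11338 called genes of 15764 to 15941 tested, with 4675 to 5309 higher and 5330 to 6029 lower. Of the members, 2 were higher in each of these fits and 5 to 7 were lower. At an adjusted p under 0.01 in place of 0.05, 9242 of 15199 genes were called, 4055 higher and 5187 lower. Of the members, 2 were higher and 6 lower there, and Spred2 was the member that no longer passed. A required log2 difference of at least 1 left 4630 called genes, with 1 member higher (Dusp5) and 3 lower (Dusp1, Dusp4 and Dusp6); a stricter threshold brings this about by its construction. The other scaling factors moved the median log2 fold change of all genes by less than 0.1. Sample numbers are shared between the groups, but the labels do not say that they pair samples, so they were not used as pairs. Deviations of same-numbered libraries had correlations of -0.00286, 0.0291 and 0.00829. With the replicate block 10339 of 15199 genes were called, 4624 higher and 5715 lower, and again 2 members higher and 7 lower. On the TPM scale, an alternative chosen after seeing the data, 7 members had groups that did not overlap, against 9 on the CPM scale. The share of all genes tested, 76.1% on the CPM scale, was not computed on the TPM scale, so the 7 cannot be set against it. Depth was not a limit for the members, each of which had at least 461 counts in every library; Egln3, at 3 counts over the knockout-labelled libraries, was limited by it.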
